A study of Mus musculus with 18 samples.

Results

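Genes of MHC class II antigen presentation and of T cell costimulation were followed across 18 RNA sequencing libraries of sorted mouse myeloid cells and of whole bone marrow. The set held 10 genes, chosen by name from the 54838 genes of the count table through the GENCODE M21 annotation, and all 10 were found. H2-Aa, H2-Ab1 and H2-Eb1 encode chains of the class II molecule, Cd74, H2-DMa and H2-DMb1 its chaperones, and Ciita its transcriptional coactivator. Cd80 and Cd86 encode the B7 costimulatory ligands, and Itgax encodes the integrin CD11c. Both total RNA and polysomal RNA, which is RNA bound by several ribosomes and collected from a sucrose gradient, were sequenced.

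The sorted cells were MDSC (myeloid-derived suppressor cells), a mixed population of immature myeloid cells known for restraining T cell responses. They came from wild-type (WT) C57BL/6 bone marrow that had been differentiated in culture for 5 days. Cells named LY6G were CD11b high, Ly6G high and Ly6C intermediate, and cells named LY6C were CD11b high, Ly6G negative and Ly6C high. Both were plated after sorting and collected on the following day with cycloheximide, which holds ribosomes on mRNA. Bone marrow (BM) of the same strain and genotype was flushed from the femurs of 3 mice and its red cells were lysed. Each of the 6 groups (LY6C, LY6G and BM, total and polysomal) had 3 libraries, described as independent biological replicates, with the numbers 2, 3 and 6 for sorted cells and 1, 2 and 3 for BM. Age and sex of the mice were not given in the sources used here. Culture is a difference between sorted cells and BM that cannot be told apart from cell type.

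Class II molecules are dimers of an alpha and a beta chain that carry peptides from internalised proteins to the surface, where CD4 T cells read them. The invariant chain (CD74) fills the groove during assembly, and the H2-DM dimer later exchanges its remnant for peptide. CIITA does not bind DNA by itself but is recruited to a shared promoter module, made of an X and a Y box, by RFX, CREB and NF-Y factors. CD80 and CD86 on the same cell bind CD28 or CTLA-4 on T cells, and dendritic cells, B cells and activated macrophages are the usual cells with both functions.

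Promoter letters of this module are shown for H2-Aa and H2-Eb1, as examples of the sequence through which CIITA is known to act. RefSeq promoter windows (build GRCm38.p6) were matched by symbol for 6 of the 10 genes. Both stretches cover the 150 bases before the annotated start on the gene strand, at chr17:34287824-34287973 (minus strand) for H2-Aa and chr17:34305717-34305866 (plus strand) for H2-Eb1. Capitals mark the core of the X1 box (CTNGNAACT) and the Y box (TGATTGG).

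H2-Aa: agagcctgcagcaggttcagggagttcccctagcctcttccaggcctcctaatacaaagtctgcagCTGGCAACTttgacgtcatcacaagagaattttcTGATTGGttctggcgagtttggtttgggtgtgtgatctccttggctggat

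H2-Eb1: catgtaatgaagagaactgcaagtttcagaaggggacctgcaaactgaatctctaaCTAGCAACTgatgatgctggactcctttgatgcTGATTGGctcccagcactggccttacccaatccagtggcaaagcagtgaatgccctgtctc

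The X1 core began 84 bases before the start of H2-Aa and 94 before that of H2-Eb1, and the Y box at 50 and 61 bases. H2-DMb1 held the same pair at 97 and 63 bases. The matched windows of H2-DMa, Cd80 and Itgax held neither box, which says nothing about the factors. From the first base of one box to the first base of the other, the distance was 34 bases in H2-Aa, 33 in H2-Eb1 and 34 in H2-DMb1. In H2-Aa the letters TGACGTCA, a cyclic AMP element, began 74 bases before the start, directly downstream of the X1 core. Searched on both strands in the 250 bases before the start of 32851 windows, the X1 core was found in 3.47%, the Y box in 7.23% and TGACGTCA in 1.55%. Both boxes stood on the gene strand in 19 windows, or 0.0578%, and with 30 to 36 bases from first base to first base in 5 of them, those of H2-Aa, H2-DMb1, H2-Eb1, BC051142 and 1700048F04Rik. The X1 letters were chosen after these promoters had been read, so the low background shares are a description only.

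Levels are given as CPM, the count of a gene scaled to a common library size through TMM factors. Total counts, in units of 1e6 counts, ranged from 8.56 to 21.1 per sorted library and from 12.1 to 26.2 per BM library, but protein-coding genes took 37.3% to 94.6% of the sorted counts, 1.83% to 3.72% of BM polysomal counts and 0.249% to 0.323% of BM total counts. A level of 1 CPM was therefore worth 18.1 to 110 counts for sorted cells but only 0.473 to 0.611 for BM total and 1.73 to 3.51 for BM polysomal RNA. The 10 genes summed to 4654 to 71194 counts per sorted library, 242 to 337 per BM polysomal and 14 to 39 per BM total library. A gene at 0 in BM total RNA was thus not detectable at this depth. Intervals and floors cover counting error only. In total RNA the gate gene Ly6g ranged from 1.62 to 8.72 CPM in LY6G and from 1.84 to 4.16 in LY6C. The 2 kinds of cells thus overlapped in this transcript, measured on the day after sorting, which is not the surface protein used to sort them. Ly6c2 was at 48.8 to 70.0 CPM in LY6G and 76.3 to 94.2 in LY6C.

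**Figure D1:**
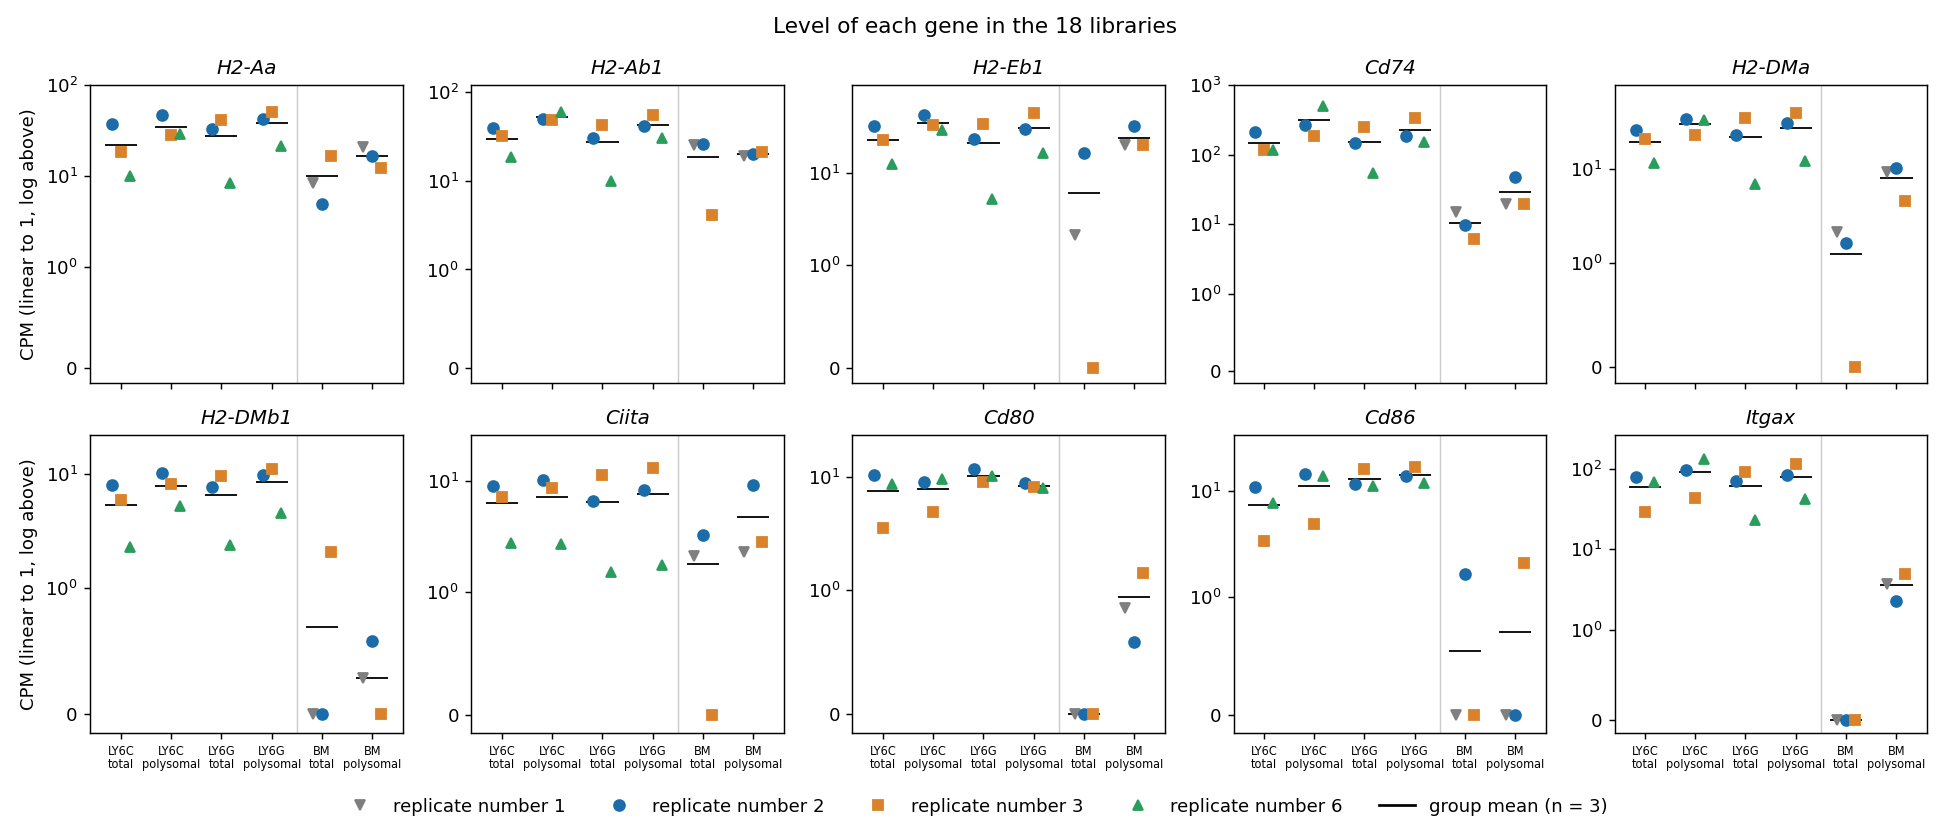
Levels of the 10 genes in the 18 libraries, in CPM on an axis that is linear to 1 and logarithmic above. Each point is 1 library, with its replicate number as symbol, and each bar is the mean of 3; all 10 genes have lower means in BM total RNA than in any sorted group, and Cd80 and Itgax are at 0 in its 3 libraries.

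Among the class II chains, given in the order of numbers 2, 3 and 6, H2-Aa (ENSMUSG00000036594, chromosome 17, 34282744 to 34287823, build GRCm38) was at 37.1, 18.3 and 10.1 CPM in LY6C total and 46.6, 28.5 and 29 in LY6C polysomal RNA. LY6G cells had 32.9, 41.4 and 8.37 CPM of it in total and 42.1, 50.3 and 21.2 in polysomal RNA. BM, in the order of numbers 1, 2 and 3, had 8.46, 4.91 and 16.5 CPM in total and 21.1, 16.8 and 12.3 in polysomal RNA. Number 6 was lowest or close to lowest in each sorted group, and its total RNA level fell within the BM range.

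H2-Ab1 (ENSMUSG00000073421, chromosome 17, 34257689 to 34269419), the beta chain that pairs with H2-Aa, stood at 39.3, 31.7 and 18.5 CPM in LY6C total and 50.3, 48.5 and 60.1 in LY6C polysomal RNA. In LY6G it was at 30.1, 42.8 and 9.86 CPM in total and 41.5, 54.5 and 30.2 in polysomal RNA. BM libraries had 25.4, 26.2 and 4.13 CPM in total and 18.8, 20.2 and 21.1 in polysomal RNA. All 6 sorted polysomal libraries were thus above the 3 BM polysomal libraries, with no such separation in total RNA.

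H2-Eb1 (ENSMUSG00000060586, chromosome 17, 34305867 to 34316674), the other beta chain, was at 33, 22.9 and 12.5 CPM in total and 43.4, 33.7 and 29.7 in polysomal RNA of LY6C. For LY6G the levels were 23.5, 34.7 and 5.2 CPM in total and 30.2, 45.6 and 16.4 in polysomal RNA. Its BM levels were 2.12, 16.4 and 0 CPM in total and 20.2, 32.4 and 20.4 in polysomal RNA. BM polysomal levels lay inside the sorted range for this chain. Gm20513 lies over H2-Eb1 on the other strand without sharing exonic bases, and H2-Eb2, whose longest coding transcript was 77.9% identical over 779 aligned positions, had at most 0.578 CPM in any library.

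Cd74 (ENSMUSG00000024610, chromosome 18, 60803848 to 60812652), the invariant chain, was at 209, 115 and 115 CPM in LY6C total and 264, 188 and 501 in LY6C polysomal RNA. LY6G cells had 149, 250 and 54.9 CPM in total and 185, 335 and 154 in polysomal RNA, and BM 14.8, 9.81 and 6.19 in total and 19.4, 47.4 and 19.7 in polysomal RNA. All 12 sorted libraries were above all 6 BM libraries. Mir5107 shares exonic bases with Cd74 on the same strand, so the assignment of reads there is uncertain. Per kilobase of annotated exon, Cd74 was first of the 10 genes in sorted cells, with 189 ± 97.3 CPM per kilobase in LY6C polysomal RNA (mean ± SD, n = 3) against 20.6 ± 2.43 for H2-Ab1, the next gene. In BM polysomal RNA it had 17.2 ± 9.58 CPM per kilobase and H2-Eb1 12.5 ± 3.58, and these ranges overlapped.

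H2-DMa (ENSMUSG00000037649, chromosome 17, 34119541 to 34139101), the alpha chain of the peptide exchanger, was at 26.5, 20.9 and 11.8 CPM in total and 34.6, 23.5 and 33.6 in polysomal RNA of LY6C. Its LY6G levels were 23.5, 35.4 and 6.93 CPM in total and 31.4, 39.7 and 12.3 in polysomal RNA. BM had 2.12, 1.64 and 0 CPM in total and 9.41, 10.4 and 4.57 in polysomal RNA, less than any sorted library of the same fraction. Reads of H2-DMa could be mixed with those of Brd2, which shares exonic bases with it on the other strand, so its levels are uncertain.

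H2-DMb1 (ENSMUSG00000079547, chromosome 17, 34153072 to 34160230), its beta chain, had 7.97, 5.93 and 2.28 CPM in total and 10.2, 8.2 and 5.26 in polysomal RNA of LY6C. Its LY6G levels were 7.62, 9.68 and 2.36 CPM in total and 9.81, 11 and 4.54 in polysomal RNA. Its BM levels were 0, 0 and 2.06 CPM in total and 0.285, 0.578 and 0 in polysomal RNA. Every sorted library was again above the BM libraries of the same fraction. H2-DMb2 is a close copy, 87.3% identical to H2-DMb1 over 1157 aligned positions of their longest coding transcripts, and reads could be split between them, so these levels are uncertain too.

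Ciita (ENSMUSG00000022504, chromosome 16, 10480059 to 10528418) was at 9.07, 7.2 and 2.78 CPM in total and 10.3, 8.75 and 2.71 in polysomal RNA of LY6C. LY6G cells held 6.58, 11.4 and 1.52 CPM in total and 8.41, 13.1 and 1.76 in polysomal RNA. BM libraries had 2.12, 3.27 and 0 CPM in total and 2.28, 9.24 and 2.81 in polysomal RNA. Number 6 was the lowest of the 3 numbers in each sorted group, and there its level was within or below the range of BM polysomal RNA. Dexi shares exonic bases with Ciita on the other strand, so its level is uncertain. Per kilobase of exon Ciita was the lowest of the 10 genes in LY6C polysomal RNA, at 0.762 ± 0.422 CPM.

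The B7 ligands were lower than the chains per kilobase of exon, at 2.14 CPM for Cd80 and 3.02 for Cd86 in LY6C polysomal RNA against 9.14 for H2-Aa, the lowest chain. Cd80 (ENSMUSG00000075122, chromosome 16, 38455561 to 38496335) had 10.4, 3.55 and 8.76 CPM in total and 9.09, 4.92 and 9.76 in polysomal RNA of LY6C, and 11.9, 9.06 and 10.2 in total and 8.83, 8.19 and 8 in polysomal RNA of LY6G. BM total RNA held no count of it in 3 libraries, and BM polysomal RNA had 0.855, 0.578 and 1.4 CPM, below each sorted library.

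Cd86 (ENSMUSG00000022901, chromosome 16, 36603869 to 36666081) had 10.9, 3.38 and 7.64 CPM in total and 14.4, 4.87 and 13.9 in polysomal RNA of LY6C, and 11.5, 16.1 and 11.1 in total and 13.7, 16.7 and 11.9 in polysomal RNA of LY6G. BM had 0, 1.64 and 0 CPM of Cd86 in total and 0, 0 and 2.11 in polysomal RNA. Number 3 was the lowest LY6C library of each fraction for both B7 ligands, and each sorted library was above all BM libraries.

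Itgax (ENSMUSG00000030789, chromosome 7, 128129547 to 128150657), which pairs with the beta 2 integrin chain, was at 77.9, 29.1 and 68.9 CPM in total and 96, 43.4 and 130 in polysomal RNA of LY6C. LY6G levels were 69.3, 91.1 and 22.9 CPM in total and 84.2, 113 and 41.4 in polysomal RNA. In BM it was not detected in total RNA and was at 3.71, 2.31 and 4.92 CPM in polysomal RNA. Its lowest library was number 3 in LY6C and number 6 in LY6G.

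Sorted cells were then compared with bone marrow, the tissue they had been grown from. In polysomal RNA, chaperones, B7 ligands and Itgax were higher in both kinds of sorted cells, while the chains and Ciita differed less. At an adjusted p under 0.05 in edgeR's quasi-likelihood test, 7 of the 10 genes were higher in LY6C than in BM polysomal RNA, where 20.2% of the 14181 tested genes were called higher, and 6 of 10 in LY6G, where 22.1% were. None was lower, beside 11.2% of tested genes in LY6C and 15.3% in LY6G. The median log2 difference of the 10 genes was 2.47 in LY6C and 2.39 in LY6G, beside 0.52 and 0.45 over all tested genes. All 10 had passed the filter on low counts, but Cd80, Cd86, H2-DMb1, Itgax and Ciita only through their sorted libraries, where their counts were higher. In that order, BM polysomal RNA held 8, 6, 2, 31 and 32 counts of them and BM total RNA 0, 1, 1, 0 and 3. The filter therefore says nothing about their BM levels. All of them but Ciita were among the genes called in both kinds of cells, so the numbers of calls are a description only. Because LY6C and LY6G were set against the same BM libraries, their differences are not independent of each other.

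Among the chains, H2-Ab1 was 2.65-fold higher in LY6C polysomal RNA (log2 difference 1.4 ± 0.47 SE, edgeR adjusted p = 0.0287) and had a difference of 1.07 ± 0.47 in LY6G (0.0796). H2-Aa was at 1.05 ± 0.54 in LY6C and 1.18 ± 0.54 in LY6G (edgeR adjusted p = 0.145 and 0.0917). H2-Eb1 was at 0.56 ± 0.62 and 0.35 ± 0.61 (edgeR adjusted p = 0.504 and 0.668). With the replicate number as a block, where BM numbers form a block apart from the sorted ones and their pairing is undecided, H2-Aa passed the threshold in both kinds of cells (edgeR adjusted p = 0.0304 in LY6C and 0.0243 in LY6G) and H2-Ab1 in LY6G (0.0439). The call of H2-Ab1 in LY6C was lost when LY6C polysomal library 6 or any of the 3 BM polysomal libraries was left out (0.0579 to 0.11), and with a filter of 50 counts in 3 libraries (0.0579). In LY6G both H2-Aa and H2-Ab1 also passed with DESeq2 (0.0383 and 0.0197), with the compared libraries alone (0.025 and 0.01) and with no filter (0.00739 and 0.0143). H2-Eb1 did not pass in either kind of cell.

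Cd74 was 11.2-fold higher in LY6C (3.48 ± 0.56, edgeR adjusted p = 9.75e-05) and 7.89-fold higher in LY6G polysomal RNA (2.98 ± 0.54, adjusted p = 0.000286). H2-DMa was 3.81-fold higher in LY6C (1.93 ± 0.55, edgeR adjusted p = 0.0108) and 3.46-fold in LY6G (1.79 ± 0.55, adjusted p = 0.0141), and both calls were lost without BM polysomal library 3 (0.0741 and 0.077), that of LY6G also without LY6G polysomal library 3 (0.0581). H2-DMb1 had 2 counts in the BM polysomal libraries together. The ratio of pooled counts to them was 36.4 (95% interval 10.1 to 301) in LY6C and 34.8 (9.62 to 287) in LY6G, with edgeR adjusted p = 0.000501 and 0.00032.

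Ciita was 0.73 ± 0.84 above BM in LY6C and 0.81 ± 0.84 in LY6G polysomal RNA on the log2 scale (edgeR adjusted p = 0.53 and 0.456). Cd80 was 8.05-fold higher in LY6C (3.01 ± 0.55, adjusted p = 0.000436) and 8.47-fold in LY6G (3.08 ± 0.55, adjusted p = 0.000272) by the same test. Cd86 was 14.8-fold higher in LY6C (3.89 ± 0.78, edgeR adjusted p = 0.000775) and 18.9-fold in LY6G (4.24 ± 0.77, adjusted p = 0.000266). These folds are uncertain, as BM polysomal RNA held 6 counts of Cd86, all in library 3. With single libraries left out, its log2 difference ranged from 3.1 to 12.06 in LY6C and from 3.5 to 12.46 in LY6G. Itgax was 23.9-fold higher in LY6C (4.58 ± 0.64, edgeR adjusted p = 4.33e-05) and 21.2-fold in LY6G (4.4 ± 0.63, adjusted p = 4.59e-05). The costimulatory ligands and CD11c were thus called in both comparisons, and the coactivator in neither.

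**Figure D2:**
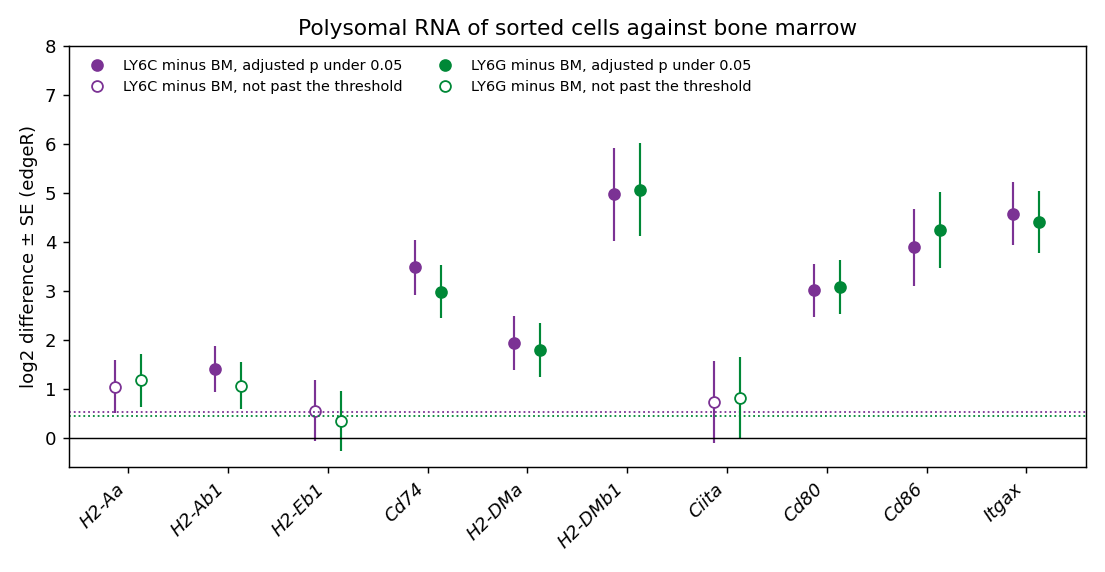
Log2 difference of sorted cells minus bone marrow in polysomal RNA, with its standard error from edgeR (3 libraries a group). Filled circles passed an adjusted p of 0.05 and open ones did not; dotted lines are the medians of all 14181 tested genes, 0.52 for LY6C and 0.45 for LY6G, and H2-Eb1 lies close to them. The fitted value of H2-DMb1 rests on 2 counts in BM, and that of Cd86 on 6 counts in BM library 3.

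In total RNA 5 of the 10 genes were higher in LY6C than in BM (20.5% of all tested genes were called higher) and the same 5 in LY6G (21.5%): Cd74, H2-DMa, Cd80, Cd86 and Itgax. No gene of the set was lower (7.4% of all tested genes in LY6C and 9.39% in LY6G). The median fitted log2 difference of the 10 genes was 3.31 in LY6C and 3.62 in LY6G, or 2.53 and 2.9 with the 2 genes that had no BM count set to their lower bound, beside 1.64 and 1.63 over all tested genes. Differences from BM total RNA are to be read against that shift, which was 0.18 and 0.32 with DESeq2. Cd74 was 14.3-fold higher in LY6C (3.84 ± 0.64, edgeR adjusted p = 0.000176) and 14.8-fold in LY6G (3.89 ± 0.64, adjusted p = 0.000128). Itgax, with no count in BM, was at least 30.6-fold higher in LY6C and at least 31.6-fold higher in LY6G, taking a floor of 3 counts over the 3 BM libraries (edgeR adjusted p = 0.000105 and 7.7e-05). Cd80 was at least 3.96-fold and 5.43-fold higher by the same floor (edgeR adjusted p = 0.00191 and 0.00064).

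H2-DMa had 2 counts in BM total RNA, for pooled ratios of 18.4 (95% interval 5.1 to 152) in LY6C and 16.8 (4.66 to 139) in LY6G, with edgeR adjusted p = 0.0048 and 0.00296. Cd86 had 1 count there, for ratios of 14.9 (2.67 to 589) and 19.8 (3.55 to 783), with edgeR adjusted p = 0.0475 and 0.00991. The call of Cd86 in LY6C rested on few counts and was lost without any one of LY6C total libraries 2 and 6 and the 3 BM libraries (adjusted p = 0.0811 to 0.177), and in LY6G without BM total library 1 or 3 (0.0546 and 0.0567). With median-ratio factors, the strict filter or the compared libraries alone, its LY6C call was lost too (0.0914, 0.0605 and 0.0884). H2-DMb1 had 1 count in BM, for ratios of 10.7 (1.92 to 424) and 10.2 (1.83 to 403), with edgeR adjusted p = 0.088 and 0.053, and passed with the replicate block (0.0456 and 0.0254). Ciita had 3 counts, for ratios of 4.11 (1.4 to 19.9) and 3.29 (1.12 to 16), with edgeR adjusted p = 0.391 and 0.365.

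The 3 chains did not pass in total RNA. H2-Aa was 1.17 ± 0.67 above BM in LY6C and 1.5 ± 0.67 in LY6G on the log2 scale (edgeR adjusted p = 0.21 and 0.0962), H2-Ab1 0.67 ± 0.53 and 0.55 ± 0.53 (0.384 and 0.459), and H2-Eb1 1.76 ± 0.82 and 1.65 ± 0.83 (0.124 and 0.144). H2-Eb1 passed in LY6C with the replicate block (0.0363). Library 6 of LY6G mattered for these genes: without it H2-Aa (0.0183), H2-Eb1 (0.0308) and H2-DMb1 (0.0194) passed in LY6G total RNA, for 8 of the 10 genes. H2-Eb1 also passed in both kinds of cells without BM total library 2 (0.0283 and 0.029), the library with its highest BM total level.

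Bone marrow holds other cells that use these genes. Summed over 12 B cell markers, the level was 84.7 to 118 CPM in BM total and 171 to 174 in BM polysomal RNA, against 4.97 to 18.4 CPM in the sorted libraries. Summed over 12 dendritic cell markers it was 39.2 to 54 and 52.2 to 66.4 CPM in BM, against 14.0 to 26.2 in sorted libraries, and over 11 macrophage markers 67.7 to 173 CPM in BM against 227 to 1190 in sorted cells. By gene the picture was mixed. Of 8 tested dendritic cell markers, 4 in LY6C and 5 in LY6G had a positive log2 difference from BM in total RNA (median 0.19 in both), and 4 and 3 in polysomal RNA (-0.54 and -0.77). Macrophage markers had medians of 1.37 in LY6C and 0.73 in LY6G total RNA, and of 0.71 and 0.46 in polysomal RNA, beside all-gene medians of 1.64, 1.63, 0.52 and 0.45. Of the dendritic cell markers, Xcr1 was at 0 in both LY6C groups and in BM, none was at 0 in the LY6G groups, and Batf3, Clec9a, Cd209a and Siglech were at 0 in BM total RNA. B cell markers Cd79b, Ms4a1 and Igkc were at 0 in BM total RNA and Igll1 in LY6C total and LY6G polysomal RNA, and macrophage markers Fcgr1 and Gpnmb were at 0 in BM total RNA. H2-Ob encodes the beta chain of H2-DO, an inhibitor of peptide exchange known from B cells, and had 11.6 to 12.6 CPM among BM polysomal libraries against 0.208 to 1.17 among sorted libraries. Its log2 difference from BM polysomal RNA was -4.09 ± 0.62 in LY6C and -5.12 ± 0.65 in LY6G (edgeR adjusted p = 5.77e-05 and 5.88e-06), and it was named after its values were seen. The part of such cells in the differences between sorted cells and BM was not tested, and in bulk RNA fewer cells of a type and less RNA per cell cannot be told apart.

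Polysomal RNA was next compared with total RNA. Each library was scaled to a common size, so a difference is relative to other genes. It does not give the amount of an mRNA that was on ribosomes. Within a replicate number, the polysomal level was above the total level in 55 of 60 gene-by-number cases in sorted cells. For the 6 chain and chaperone genes this held in 36 of 36. In all 6 pairs it held for 8 of the 10 genes, as it did for 16.8% of all tested genes. The share of all tested genes case by case was not computed. The 60 cases come from the same 6 pairs of libraries, and several of the genes varied together, so they are not independent. The group test called none of the 10 genes in either kind of sorted cell (edgeR adjusted p = 1 for each), and none of all tested genes (0%), with 433 genes at an unadjusted p under 0.05 in LY6C and 254 in LY6G. DESeq2 called 6 and 4 genes, all lower in polysomal RNA, and edgeR with no filter 56 and 29, none of them among the 10. The median log2 difference of the 10 genes was 0.62 in LY6C and 0.37 in LY6G, beside 0.01 and 0 over all genes. It was not particular to them. Medians in LY6C and LY6G were 0.84 and 0.56 for class I genes and 0.38 and 0.51 for other class II processing genes. Other beta 2 integrin chains had 0.5 and 0.52, and class II transcription factors 0.03 and -0.01.

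Cd74 had the largest value in LY6C, 1.12 ± 0.50 on the log2 scale, or 0.34, 0.71 and 2.12 in numbers 2, 3 and 6. In LY6G it was at 0.57 ± 0.50, or 0.31, 0.42 and 1.49 by number. Its difference between the kinds of cells, the efficiency contrast, was -0.55 ± 0.70 (edgeR adjusted p = 1). H2-Ab1 was at 0.83 ± 0.45 in LY6C and 0.61 ± 0.45 in LY6G, H2-Aa at 0.66 ± 0.51 and 0.46 ± 0.51, and H2-Eb1 at 0.64 ± 0.60 and 0.54 ± 0.60. The other chaperones, H2-DMa and H2-DMb1, were at 0.63 ± 0.49 and 0.54 ± 0.52 in LY6C and at 0.34 ± 0.49 and 0.37 ± 0.52 in LY6G. For these 6 genes the difference was positive in every number of both kinds of cells, and number 6 had the largest.

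Number 6 stood apart. The median of the 10 genes within a number was 0.34, 0.54 and 1.23 in LY6C and 0.35, 0.24 and 0.90 in LY6G for numbers 2, 3 and 6. Its total RNA had low levels of the 7 class II genes (chains, chaperones and Ciita). Its polysomal RNA stood higher against the other 2 numbers than its total RNA did for the 6 chain and chaperone genes. In LY6C polysomal RNA, Cd74 (1.15), H2-Ab1 (0.28) and H2-DMa (0.21) were above the other numbers. H2-Aa (-0.37), H2-Eb1 (-0.38) and H2-DMb1 (-0.81) were below them, and in LY6G all 6 were. Ciita did not stand higher, at -1.55 in total and -1.82 in polysomal RNA of LY6C and -2.56 and -2.62 in LY6G. These values are log2 differences from the mean of the other 2 numbers. On this scale the median of the 7 genes was -1.17 in total and -0.37 in polysomal RNA of LY6C, and -2.09 and -1.2 for LY6G. Without LY6G total library 6 the fitted polysomal difference of H2-DMa was -0.08 and of Itgax -0.01 in LY6G.

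Ciita and Cd80 had the lowest fitted values in LY6C, but genes were not tested against each other. Ciita was at 0.20 ± 0.73 in LY6C and 0.26 ± 0.73 in LY6G. For numbers 2, 3 and 6 it was at 0.19, 0.28 and -0.04 in LY6C and at 0.35, 0.2 and 0.2 in LY6G. Cd80 was at 0.06 ± 0.38 in LY6C, with values of both signs. In LY6G it was at -0.32 ± 0.38, and its polysomal level was below the total level in all 3 numbers. Cd86 was at 0.58 ± 0.52 and 0.13 ± 0.51, and Itgax at 0.61 ± 0.51 and 0.38 ± 0.51. None of these passed the test, and the efficiency contrast of LY6G minus LY6C called none of the 10 genes and none of all genes (0%; 7 at an unadjusted p under 0.05; none by DESeq2).

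**Figure D3:**
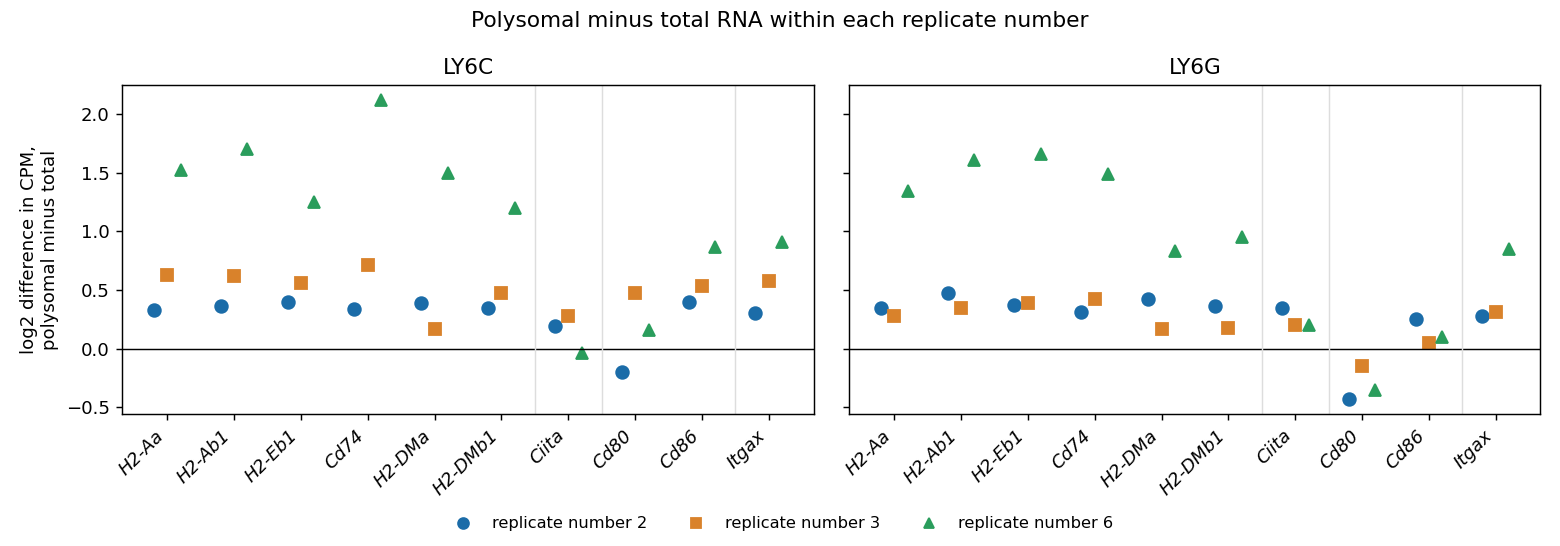
Log2 difference of polysomal minus total CPM for each gene, within each replicate number of LY6C (left) and LY6G (right). Each point is 1 pair of libraries; the 6 chain and chaperone genes are above 0 in all pairs with number 6 highest, and Cd80 is below 0 in all 3 pairs of LY6G.

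With the replicate number as a block, none of the 10 genes passed in these comparisons either, and the lowest adjusted p among them was 0.557 in LY6C and 0.921 in LY6G. Fitted with the compared libraries alone, a setting chosen after seeing the data, the block gave 0.358 and 0.167. The missing call does not show that polysomal and total levels were alike.

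In bone marrow none of the 10 genes passed either (3.39% of all genes were called in either direction; 2759 had an unadjusted p under 0.05). The median of the 10 genes was 1.35, or 0.86 with the 2 genes that had no count in total RNA at their bound, and that of all tested genes was 0.55, a value that was 0.13 with median-ratio factors and 0 with DESeq2. H2-Eb1 was at 1.84 ± 0.84 and Cd74 at 1.48 ± 0.64 on the log2 scale (edgeR adjusted p = 0.234 and 0.204). H2-DMa, with 2 counts in BM total RNA, had a pooled ratio of 6.21 (95% interval 1.65 to 52.4; edgeR adjusted p = 0.176). The efficiency contrasts between sorted cells and BM called none of the 10 genes, with standard errors up to 4.84 on the log2 scale, and 0.338% of all genes called for LY6C and 0.416% for LY6G (1961 and 2012 at an unadjusted p under 0.05). DESeq2 called none of the 10 genes in these 3 comparisons.

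LY6G and LY6C cells were compared within each fraction. None of the 10 genes passed in total or polysomal RNA, and neither did any tested gene (0% in both; 565 and 833 genes at an unadjusted p under 0.05; none by DESeq2). With no filter on low counts 76 and 88 genes were called, and without number 6 4 and 1, none of them among the 10. The lowest adjusted p among the 10 was 1 in total RNA and 0.916 in polysomal RNA. Median log2 differences of the 10 genes were 0.10 and -0.03, and those of all genes 0 and -0.03. Cd86 had the largest difference in total RNA, 0.80 ± 0.52, or 0.07, 2.25 and 0.54 in numbers 2, 3 and 6. In polysomal RNA Cd74 was furthest below 0, at -0.50 ± 0.50.

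The direction depended on the replicate number. In number 3 all 10 genes were higher in LY6G than in LY6C in both fractions, with a median of 0.94 in total and 0.74 in polysomal RNA. In polysomal RNA of numbers 2 and 6 all 10 were lower in LY6G, with medians of -0.17 and -0.74, and in total RNA 8 and 7 of 10 were lower. The share of all tested genes in each direction within a number was not computed, and several of the 10 genes varied together. These counts therefore describe pairs of libraries and not a trait of the set. For the 7 class II genes, the LY6G libraries of number 3 stood above the other 2 numbers, with medians of 1.22 in total and 0.86 in polysomal RNA, and the LY6C libraries of number 3 did not stand far from them (0.12 and -0.19). For Cd80 and Cd86 and for Itgax the LY6C libraries of number 3 were low, at -1.45 and -1.34 in total and -1.24 and -1.38 in polysomal RNA. Those LY6C libraries held 37.3% (total) and 66.7% (polysomal) protein-coding counts. Macrophage markers in them had a median of -1.64 in total and -1.81 in polysomal RNA against the other 2 numbers of LY6C on the log2 scale, with 11 of 11 below 0, and neutrophil markers a median of 2.27 and 1.82, with 8 and 9 of 10 above 0. The part of these differences in the levels of the 10 genes was not tested.

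**Figure D4:**
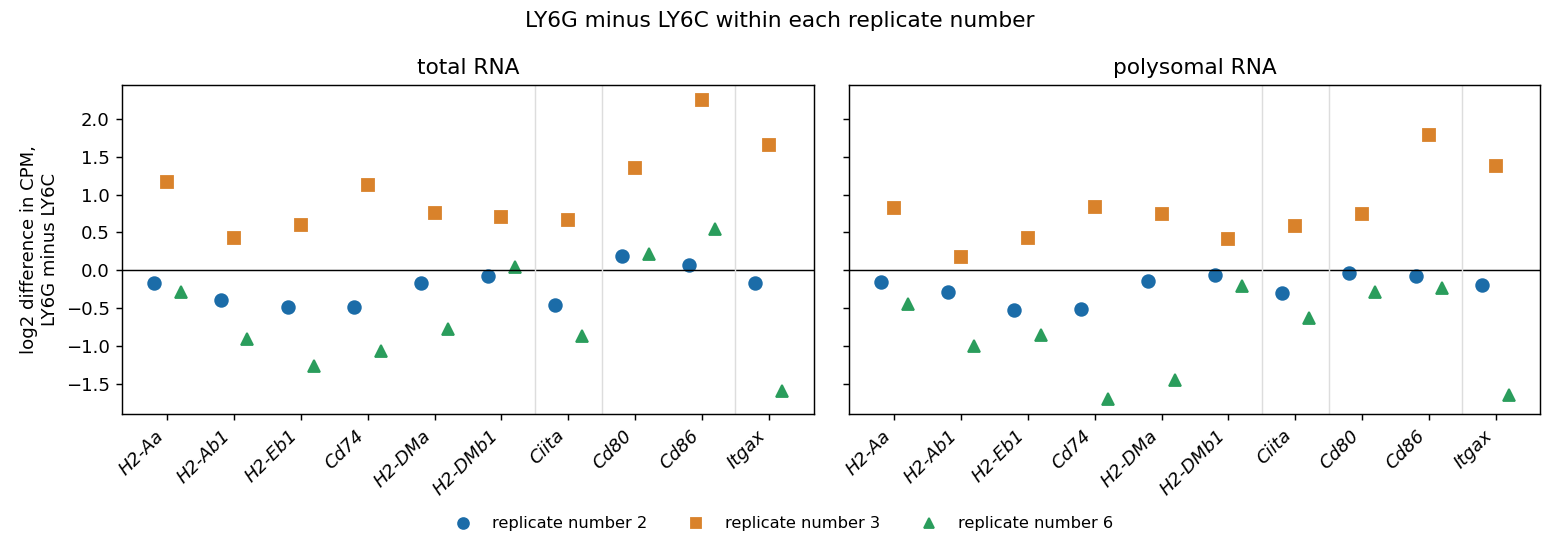
Log2 difference of LY6G minus LY6C in CPM for each gene within each replicate number, in total RNA (left) and polysomal RNA (right). Each point is 1 pair of libraries; number 3 is above 0 for all 10 genes, and numbers 2 and 6 are below 0 for all 10 in polysomal RNA.

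Across the 12 sorted libraries the chain and chaperone genes varied together, described here by Pearson's r of log2 CPM without a test, since the libraries are not independent: each kind of cell gave both fractions, and libraries with the same number deviated together. The 6 chain and chaperone genes correlated with each other at 0.65 to 0.96 over 15 pairs, with a median of 0.91. Ciita correlated with them at 0.47 to 0.89. Within the 6 LY6G libraries the 6 genes were at 0.92 to 0.99 with each other and at 0.82 to 0.97 with Ciita. Within the 6 LY6C libraries the values spread more, from 0.38 (Cd74 with H2-DMb1) to 0.98, and those of Ciita from -0.15 (with Cd74) to 0.85. H2-Aa, H2-Eb1 and H2-DMb1, with the box pair in the window searched, were at 0.91 to 0.96 with each other. H2-DMa, without these exact letters, was at 0.93, 0.96 and 0.89 with them. No window was matched for H2-Ab1, Cd74 or Ciita, and the X1 letters were chosen after the promoters had been read. A relation between the boxes and these values was not tested. Over the 12 libraries Cd80 and Cd86 correlated with the 7 class II genes at -0.19 to 0.45, with a median of 0.14, and with each other at 0.83, but these values did not hold within each kind of cell. Cd80 and Cd86 were at 0.93 with each other in LY6C and at -0.55 in LY6G. With the class II genes, Cd86 was at -0.17 to 0.75 in LY6C and 0.76 to 0.85 in LY6G, and Cd80 at -0.29 to 0.55 and -0.48 to -0.07. Itgax was at 0.46 to 0.87 with the class II genes over the 12 libraries, at -0.37 to 0.79 in LY6C and at 0.94 to 1 in LY6G, and with Cd80 and Cd86 at 0.92 and 0.97 in LY6C and at -0.23 and 0.81 in LY6G.

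**Figure D5:**
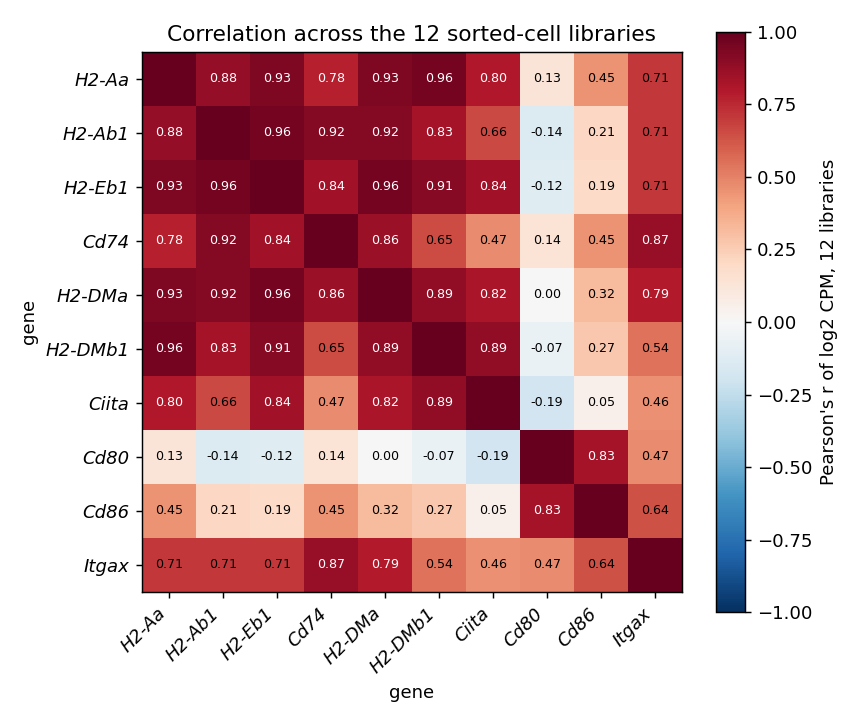
Pearson's r between the log2 CPM of each pair of genes over the 12 sorted-cell libraries, from -1 (blue) to 1 (red), with the value in each cell. The 6 chain and chaperone genes form a block of 0.65 to 0.96, and Cd80 and Cd86 are at 0.83 with each other and at -0.19 to 0.45 with the 7 class II genes; the values differ within each kind of cell.

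Genes whose pattern was most like the mean of H2-Aa, H2-Ab1, H2-Eb1 and Cd74 over the 12 sorted libraries, among 11785 protein-coding genes, were Jup (r = 0.975), Tmem173 (0.968), Cryl1 (0.953), Ccl17 (0.95) and Elovl5 (0.944). Ccl17 encodes a chemokine known from dendritic cells, and Tmem173 encodes the DNA-sensing adaptor STING. Cd80 was most like Il1b (0.956), which encodes interleukin 1 beta, Kpna4 (0.946) and Ets2 (0.935). For Cd86 the closest were Cd180 (0.971), Tpm4 (0.957) and Clcn5 (0.955), and for Itgax they were Lpl (0.962), which encodes lipoprotein lipase, Ocstamp (0.947) and Cdk18 (0.944). The lists for the chains, for each B7 ligand and for Itgax had no gene in common. Over all 18 libraries, where BM and sorted cells set most of the pattern, the genes closest to the class II mean were Eif4a1 (0.914), Slc38a1 (0.91), Slc25a4 (0.906), 5031439G07Rik (0.902) and Twsg1 (0.901). Those closest over 18 libraries were Gpr132 (0.998), Clec4d (0.996) and Clec4e (0.994) for Cd80, Socs3 (0.972), Hip1 (0.948) and Lacc1 (0.947) for Cd86, and Ggh (0.99), Cd53 (0.99) and Ugt1a7c (0.989) for Itgax.

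Neither class I genes nor the other class II processing genes had low medians in number 6. Against the other 2 numbers, the 14 class I genes of number 6 had log2 medians of 0.49 (total) and 1.84 (polysomal) for LY6C and of 0.29 (total) and 1 (polysomal) for LY6G, while the class II medians in the same order were -1.17, -0.37, -2.09 and -1.2. The 12 other class II processing genes had medians of 0.23, 0.61, 0.23 and 0.66. Macrophage markers had medians of 0.94, 1.49, 0.43 and 1.01 in these libraries, and neutrophil markers of -2.47, -1.23, -1.33 and -0.54. Medians over all tested genes lay between -0.07 and 0.03. These are descriptions of 1 replicate number, and their relation to the class II levels was not tested.

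Other genes of the pathway gave a mixed picture against BM, to be read beside the shares of all genes called given above. Of 12 further class II processing genes, 6 were higher and 2 lower in LY6C polysomal RNA, and 5 higher and 2 lower in LY6G, with medians of 1.57 and 1.06. In total RNA 5 were higher and 1 lower in each. The higher genes included the lysosomal proteases Ctss, which trims the invariant chain, at 341 ± 317 CPM in LY6C and 236 ± 65.7 in LY6G against 20.8 ± 1.31 in BM polysomal RNA (edgeR adjusted p = 3.42e-05 and 8.99e-05), and Ctsb, Ctsd and Ctsl. The lower genes in polysomal RNA were H2-Ob and March8, a ubiquitin ligase of membrane proteins, and March8 too was named after its values were seen. March8 was at 12.6 ± 1.43 CPM in LY6C, 14.1 ± 2.16 in LY6G and 45 ± 5.61 in BM polysomal RNA (edgeR adjusted p = 9.34e-05 and 0.000178).

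Of 12 class II transcription factors, 11 were tested, and 5 were higher and 3 lower in polysomal RNA of both LY6C and LY6G than in BM, with medians of 0.89 and 0.86. Spi1, which encodes the myeloid factor PU.1, was at 51 ± 7.05 CPM in LY6C and 56.4 ± 10 in LY6G against 13 ± 1.31 in BM (edgeR adjusted p = 7.94e-05 and 3.13e-05), and Irf4 at 23.7 ± 8.38 and 28.8 ± 16.3 against 7.13 ± 4.05 (0.0235 and 0.0086). The RFX complex, which binds the X box, had subunits in both directions: Rfx5 and Rfxap were lower and Rfxank, at 3.05 ± 0.307 CPM in LY6C and 2.86 ± 0.409 in LY6G against 0.763 ± 0.87 in BM, was higher (edgeR adjusted p = 0.0274 and 0.0303). Rfx5 and Rfxank were named after their values were seen. Rfxap was at 3.35 ± 1.42 and 1.60 ± 0.58 against 18.8 ± 7.41 CPM (edgeR adjusted p = 0.000889 and 3.21e-05). Irf8, a factor of monocyte and dendritic cell development, was lower too, at 12 ± 6.17 and 13.5 ± 7.61 against 35.9 ± 8.94 CPM (edgeR adjusted p = 0.0222 and 0.0338). In total RNA 5 were higher in each, and 2 lower in LY6C and 3 in LY6G.

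Of 13 other costimulatory and adhesion ligands, 12 were tested, and 9 were higher and 1 lower in LY6C polysomal RNA, and 8 higher and 1 lower in LY6G. Cd274, which encodes the inhibitory ligand PD-L1, was at 58.1 ± 34.3 CPM in LY6C and 74.3 ± 41.1 in LY6G against 0.731 ± 0.635 in BM polysomal RNA (edgeR adjusted p = 0.000258 and 0.000134), and the adhesion ligand Icam1 at 55.6 ± 36.2 and 42.9 ± 5.71 against 2.16 ± 1.83 (7.87e-06 and 1.44e-05). The lower gene was Vsir, which encodes the inhibitory receptor VISTA, at 156 ± 17.7 and 120 ± 20.4 against 315 ± 10 CPM (edgeR adjusted p = 0.00789 and 0.000543). Of the 14 class I genes, 11 were higher and none lower in LY6C polysomal RNA, and 3 were higher and none lower in LY6G. In LY6C these included H2-K1, a class I heavy chain, with a log2 difference of 2.33, and B2m, its light chain, with 3.15. In LY6G they were Pdia3 (2.56), Psmb8 (2.59) and Erap1 (3.97). Number 6 was far above the other numbers for class I. Summed over the 14 genes, numbers 2, 3 and 6 had 1700, 1640 and 7520 CPM in LY6C polysomal RNA. In LY6G polysomal RNA they had 1300, 1530 and 3180, against 946 to 1080 in BM. None of these genes was called between LY6G and LY6C or between polysomal and total RNA of sorted cells.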

How the data were processed

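The authors deposited raw counts per gene as whole numbers, in 1 table of 54838 genes by 18 libraries. Per the labels' protocols, stranded libraries were made after ribosomal RNA depletion. FastQC, STAR 2.5.2a, DESeq and DESeq2 with GRCm38/mm10 are named in the submitters' processing notes. For the assignment of reads to genes, the sources used here name no program, annotation or strand setting. GENCODE M21 supplied names for 54723 of the identifiers, and 115 had none.

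Counts were fitted with edgeR 4.0.16 in R 4.3.3, with the 6 groups in 1 model. After filterByExpr (minimum count 10), 14181 genes were tested. Scaling used TMM, and log2 CPM a prior count of 2. Robust quasi-likelihood tests were adjusted by the Benjamini-Hochberg method over all tested genes in each of 12 comparisons, with a threshold of 0.05. The script was tested on simulated data. Values per kilobase used the union of annotated exons. A fold against 0 counts used a floor of 3 counts over the group, and intervals are exact at 95%. Transcripts were aligned with biopython 1.88 and figures drawn with matplotlib 3.10.9.

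The 10 genes, the gene lists and the markers were chosen with earlier results of these data known. By rule, all 10 genes were to be named in every comparison, with up to 4 called genes of each other list, those with the highest mean CPM in the higher group, and the nearest 5 (class II mean) or 3 genes by correlation. Some of these are given by count or range only.

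Pairing was taken from replicate numbers in the sample names and checked by correlating deviations from group means between libraries with the same number, against a threshold of 0.1. Sorted-cell pairs gave 0.27 to 0.74, so numbers pair these libraries. Those of BM gave 0 to 0.03, where few genes were detected, and the pairing is undecided. Alternatives were median-ratio factors, DESeq2 1.42.0, no filter, a strict filter (50 counts in 3 libraries), the compared libraries alone, a replicate block and each library left out. Added after seeing the data were the block with the compared libraries alone and leaving out all 4 sorted libraries of 1 number.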

Additional observations from a re-analysis of the deposited data

How the results depend on the processing

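With single libraries left out, the number of the 10 genes called against BM was 4 to 5 in LY6C total, 4 to 8 in LY6G total, 5 to 7 in LY6C polysomal and 5 to 7 in LY6G polysomal RNA, and 0 in the other comparisons. In LY6G total RNA it was 8 instead of 5 with no filter on low counts, 8 without LY6G total library 6 and 8 without all libraries of number 6. The replicate block gave 7, 6, 8 and 8 calls against BM in the order above, DESeq2 gave 5, 6, 7 and 8, and with the block no gene was called among sorted cells. Calls over all genes moved too, from 3963, 4374, 4453 and 5313 to 4773, 5201, 5986 and 6757 with the block and 3947, 4532, 5605 and 6514 with DESeq2. The calls that the block changed stand beside their results.

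Over all 12 comparisons 149 of 1995 recomputed values changed sign, and 0 of the called ones. Among values printed here, Cd80 in LY6C polysomal minus total RNA was -0.04 with median-ratio factors and with DESeq2, and -0.3 to 0.36 over the libraries left out, with -0.06 without LY6C polysomal library 2, -0.11 without polysomal library 6 and -0.03 without all libraries of number 3 or of number 6. Ciita there ranged from -0.18 to 0.59, with -0.14 without LY6C polysomal library 2. In LY6G polysomal minus total RNA, without total library 6, H2-DMa was -0.08, H2-DMb1 -0.03, Ciita -0.21 and Itgax -0.01. Without LY6G polysomal library 3, H2-DMa was 0, Ciita -0.35 and Cd86 0. The highest values there were 0.88 for H2-DMa, 0.76 for H2-DMb1, 0.94 for Ciita, 0.33 for Cd86 and 0.79 for Itgax. Cd74 in LY6G minus LY6C polysomal RNA ranged from -1.17 without number 3 to 0.24 without number 6, and its efficiency contrast from -0.95 to 0.02. H2-Eb1 in LY6G minus BM polysomal RNA ranged from -0.02 to 0.67. For these values the cause was not tested.

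The median of all genes in LY6C minus BM total RNA was 1.64, 1.36 with median-ratio factors in edgeR and 0.18 with DESeq2, which changes the model as well as the scaling, and the share of higher calls was 73.5%, 62.6% and 57.1%. For LY6G these were 1.63, 1.49 and 0.32, and 69.6%, 64.2% and 59.5%. In BM polysomal minus total RNA the share of higher calls was 76.5%, 33.5% and 16.8%. Few counts per gene in BM total RNA limit every comparison with it.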
